A study of Mus musculus with 2 samples.

Results

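The messenger RNA of 10 antioxidant and xenobiotic response genes was examined in single cells of EO771-HEVM3 tumours and of the paired lymph nodes. These genes (Nqo1, Hmox1, Gclm, Gclc, Txnrd1, Srxn1, Slc7a11, Gpx2, Gsto1 and Cyp1a1) are 10 of the 22620 genes counted, and all 10 were found by symbol in both libraries. They were chosen by name as genes linked to the transcription factors NRF2 and AHR, with their counts across cell types and in cancer cells of these libraries already known, so every level below is a description. EO771 cells come from a breast cancer of the mouse. Their HEVM3 derivative was obtained by 3 rounds of passage in mice, each time recovering from the lung those cells that had been marked by light in the lymph nodes. The study describes this as enriching cells that favour spread through lymph node blood vessels. It names them after high endothelial venules, the vessels by which lymphocytes enter a node. The mice were C57BL/6J, with no agent or further allele named for these samples, and the study methods give an age of 5 to 6 weeks when mice were obtained. Primary tumours and paired lymph nodes of 6 mice gave 1 droplet-based 3′ library per tissue, in which transcripts are counted by unique molecular identifiers (UMIs). The mouse of origin of a cell is not known, and no tumour-free tissue was used here. Differences between the tissues therefore rest on a single library each and were not tested.

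NRF2 (gene Nfe2l2) is a transcription factor that KEAP1 and the ubiquitin ligase scaffold CUL3 mark for degradation under resting conditions. Oxidants and electrophiles that modify KEAP1 let NRF2 accumulate, pair with small MAF proteins and bind antioxidant response elements, from which BACH1 can be displaced. AHR, the aryl hydrocarbon receptor, is a ligand-activated factor that pairs with ARNT on xenobiotic response elements, and Cyp1a1 is its classical target. Among the 10 genes, Slc7a11 imports cystine, Gclc and Gclm encode the catalytic and modifier subunits of the enzyme that starts glutathione synthesis, Gpx2 and Gsto1 use glutathione, Txnrd1 and Srxn1 serve the thioredoxin and peroxiredoxin system, Hmox1 degrades haem, and Nqo1 reduces quinones.

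In the GRCm38 annotation all 10 are protein-coding genes. Nqo1 lies at chr8:107388225-107403206 and Hmox1 at chr8:75093621-75100589. Gclm lies at chr3:122245557-122270732, Slc7a11 at chr3:49892526-50443614, Gclc at chr9:77754535-77794485 and Cyp1a1 at chr9:57687928-57703824. Txnrd1 lies at chr10:82833951-82897712, Srxn1 at chr2:152105516-152111376, Gpx2 at chr12:76792333-76795554 and Gsto1 at chr19:47854970-47864790. RefSeq promoter windows (build GRCm38.p6, 250 bases before to 50 after a start) were matched by symbol for 8 of the 10 genes, with 10 windows in all since Txnrd1 has several starts. The antioxidant response element core TGACNNNGC was searched on both strands and was present in 3 of the 10 windows (1 each of Gclm, Srxn1 and Txnrd1), against 12.4% of all 32851 windows. The xenobiotic response element core GCGTG was present in 6 of the 10 windows (of Cyp1a1, Gclm, Srxn1 and Txnrd1), against 32.4% of all windows. The 3 stretches below were picked from these matches because they carry the core named for each factor upstream of a start. Each is read 5′ to 3′ on the strand that holds the core, which is in capitals. The Gclm stretch is the minus strand of chr3:122245413-122245441, the Txnrd1 stretch the minus strand of chr10:82859104-82859132 and the Cyp1a1 stretch the plus strand of chr9:57697549-57697573.
Gclm: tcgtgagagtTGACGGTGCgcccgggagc
Txnrd1: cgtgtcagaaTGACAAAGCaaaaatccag
Cyp1a1: agataaggagGCGTGgccaacagac
A match of letters is not a measurement of binding, and binding was not measured in these libraries.

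The deposited libraries held 12427 primary tumour cells with 173317475 UMIs and 11617 lymph node cells with 122207852 UMIs, of which 8787 and 9815 cells passed the limits. The cells were grouped by clusters made without the 10 genes and named after marker genes, so each name means "like" that type, and "cancer cells" below are cells with keratin and other epithelial markers. Median depth differed between classes, from 725 UMIs in primary tumour neutrophil-like cells to 34949 in lymph node cancer cells. The libraries shared 47 cell barcodes, and leaving those cells out moved no log2 ratio of the 10 genes in cancer cells by more than 0.0095. The tissues were digested with different enzymes, tumours for 2 h and lymph nodes for 1 h, so tissue and digestion cannot be told apart. Levels are UMIs per 1000000 UMIs (CPM) summed over the cells of a class in 1 library. Brackets hold 95% intervals, exact Poisson for CPM and Clopper-Pearson for the share of cells, which cover counting error only. All 8 cancer markers were present in cancer cells of both libraries, with a summed level of 4368 CPM in the primary tumour and 4909 CPM in the lymph node, against 647.5 and 72.5 CPM in T-like cells.

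The 10 genes fell into groups by the cell class in which they were highest, counting classes with at least 10 UMIs of the gene. Gsto1, Gpx2 and Cyp1a1 were highest in primary tumour cancer cells, and Hmox1, Slc7a11, Txnrd1, Srxn1, Gclm and Gclc were highest in myeloid classes. Gclm and Gclc were also spread over several other classes, and Nqo1 was highest in lymph node endothelial-like cells. In the primary tumour library cancer cells held 91.6% of the kept UMIs of all genes together, the share to read the following against. They held 98.8% of the kept Cyp1a1 UMIs of the primary tumour library, 98.3% of those of Gpx2 and 97.7% of those of Gsto1, but 33.0% of those of Hmox1 and 12.8% of those of Slc7a11. In the lymph node library, where cancer cells were 6.33% of the kept cells and held 40.5% of the kept UMIs of all genes, they held 94.7% of the Cyp1a1, 97.3% of the Gpx2 and 76.2% of the Gsto1 UMIs.

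**Figure D1:**
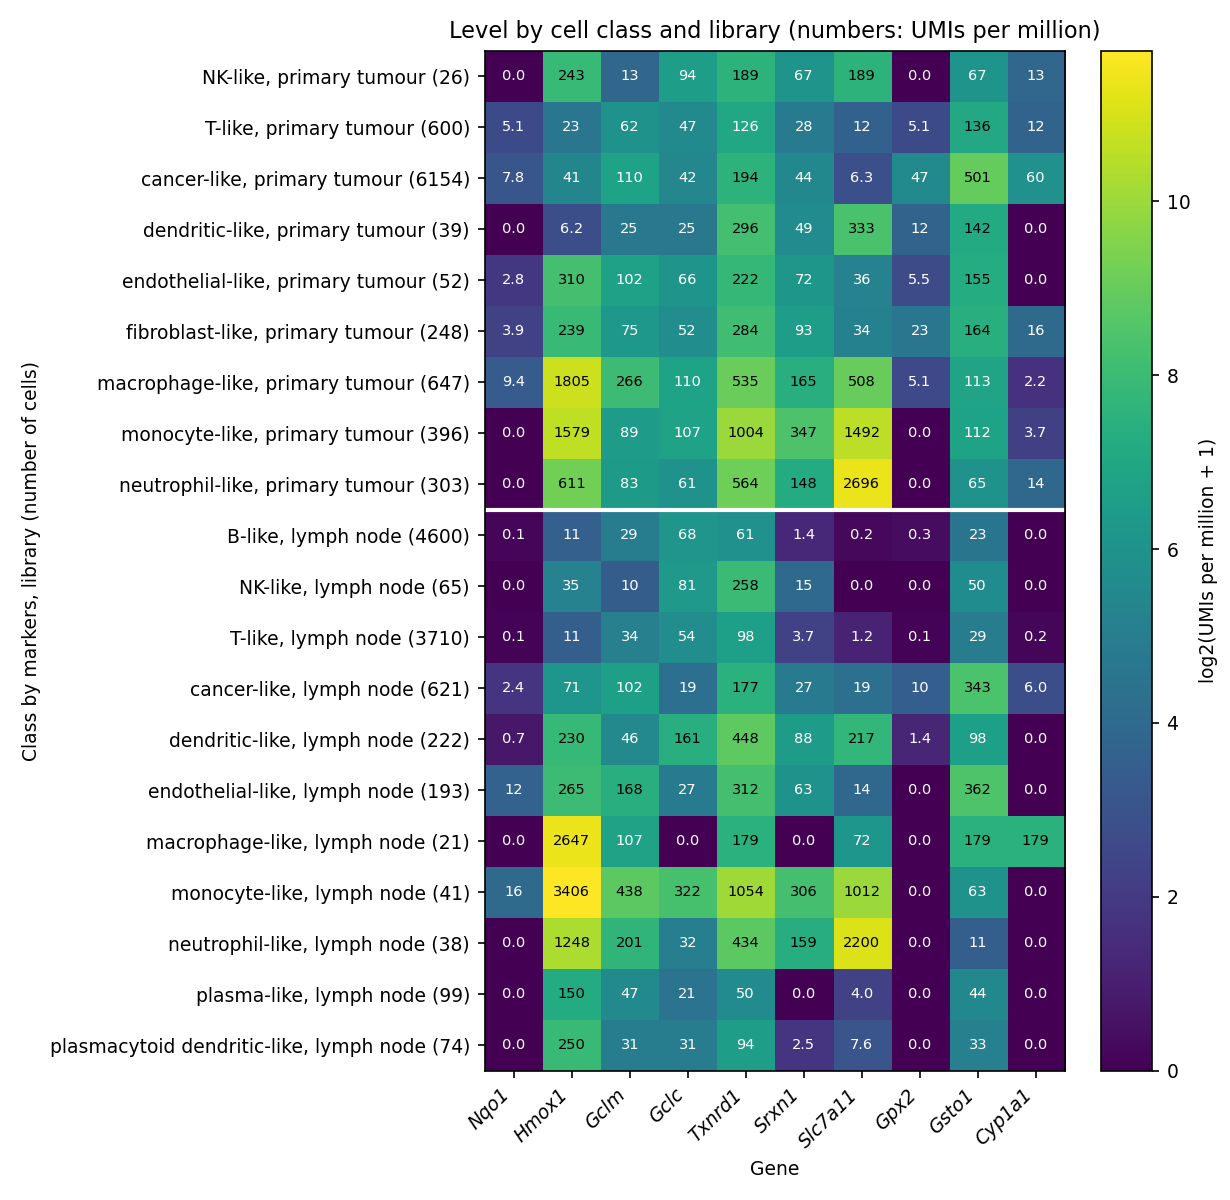
Level of each gene (columns) in each class and library with at least 20 cells (rows, number of cells in parentheses), printed as CPM and coloured as log2(CPM + 1). Hmox1, Slc7a11, Txnrd1 and Srxn1 are brightest in monocyte-like, macrophage-like and neutrophil-like rows, while Gpx2 and Cyp1a1 stand out in the primary tumour cancer row (the lymph node macrophage-like value of Cyp1a1 rests on 5 UMIs of 1 cell).

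Gsto1, an omega-class glutathione transferase, was counted at 501 CPM [497, 506] in primary tumour cancer cells and 343 CPM [335, 351] in lymph node cancer cells. Lymph node endothelial-like cells were close to the latter, at 362 CPM [343, 382], and the 2 intervals overlapped. T-like cells had 136 CPM in the primary tumour and 29.2 CPM in the lymph node, the same order as their summed cancer markers given above. The part of RNA free in the droplets in these T-like values was not tested. After thinning to 1000 UMIs per cell, a Gsto1 UMI was expected in 34.6% [33.4, 35.8] of primary tumour cancer cells, against 6.14% [4.15, 8.71] of primary tumour T-like cells. Without thinning, 91.2% of these cancer cells (median depth 14026 UMIs) and 12.3% of the T-like cells (median depth 1592 UMIs) had one.

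Gpx2, an epithelial glutathione peroxidase, was counted at 46.8 CPM [45.4, 48.1] in primary tumour cancer cells and 10.5 CPM [9.14, 12] in lymph node cancer cells. Outside cancer cells its highest level with at least 10 UMIs was 23.1 CPM [17, 30.6] in primary tumour fibroblast-like cells, of which 1 cell gave 13 of 48 UMIs. Those fibroblast-like cells also had cancer markers at a summed 1332 CPM, and the part of those cells or of free RNA in the Gpx2 value was not tested. Lymph node endothelial-like cells had 0 Gpx2 UMIs, which allows up to 0.791 CPM.

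Cyp1a1, a monooxygenase that oxidises polycyclic aromatic compounds, was counted at 59.6 CPM [58.1, 61.2] in primary tumour cancer cells and 5.99 CPM [4.98, 7.14] in lymph node cancer cells. Outside cancer cells its highest level with at least 10 UMIs was 15.9 CPM [10.9, 22.3] in primary tumour fibroblast-like cells, of which 1 cell gave 13 of 33 UMIs. Primary tumour T-like cells had 12.2 CPM [7.36, 19.1], from 19 UMIs of which 1 cell held 7. After thinning to 1000 UMIs the share of cells with a Cyp1a1 UMI was 3.37% [2.93, 3.85] in primary tumour cancer cells and 0.185% in T-like cells of the same library. The unthinned shares were 13.4% and 1.17%. Both endothelial-like groups had 0 Cyp1a1 UMIs, which allows up to 8.31 CPM in the primary tumour and 0.791 CPM in the lymph node.

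Hmox1, haem oxygenase 1, was highest in lymph node monocyte-like cells at 3406 CPM [3148, 3679], followed by lymph node macrophage-like cells at 2647 CPM [2078, 3323], which rest on 74 UMIs of 21 cells. The primary tumour macrophage-like and monocyte-like cells had 1805 CPM [1755, 1856] and 1579 CPM [1494, 1667]. Primary tumour cancer cells had 40.6 CPM [39.4, 41.9] and lymph node cancer cells 71.0 CPM [67.4, 74.7], well below every monocyte-like and macrophage-like value. Endothelial-like cells lay between these, at 310 CPM [255, 373] in the primary tumour and 265 CPM [249, 282] in the lymph node, with overlapping intervals. Hmox1 in lymph node B-like and T-like cells was 11.2 and 10.8 CPM.

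Slc7a11, the cystine transporter subunit of system xc-, was highest in neutrophil-like cells, at 2696 CPM [2506, 2897] in the primary tumour and 2200 CPM [1912, 2521] in the lymph node. Keeping predicted doublets and clustering again, which changed the cells in that class, gave 1459 CPM in the primary tumour. The levels in monocyte-like cells were 1492 CPM [1409, 1578] in the primary tumour and 1012 CPM [874, 1166] in the lymph node. Cancer cells held far less, at 6.28 CPM [5.79, 6.79] in the primary tumour and 18.8 CPM [16.9, 20.7] in the lymph node. The value of 189 CPM in 26 primary tumour NK-like cells came from 14 UMIs of 1 cell, and the other NK-like cells had 0.

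Txnrd1, cytosolic thioredoxin reductase, was detected in every class of at least 20 cells. Its highest levels were 1054 CPM [913, 1211] in lymph node monocyte-like and 1004 CPM [936, 1075] in primary tumour monocyte-like cells, with overlapping intervals. Cancer cells had 194 CPM [191, 196] in the primary tumour and 177 CPM [171, 183] in the lymph node. Its lowest level was 49.7 CPM in lymph node plasma-like cells.

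Srxn1, sulfiredoxin, which restores hyperoxidised peroxiredoxins, followed a like order. It had 347 CPM [308, 389] in primary tumour monocyte-like and 306 CPM [232, 395] in lymph node monocyte-like cells, against 43.8 CPM [42.5, 45.1] in primary tumour and 27.2 CPM [25, 29.5] in lymph node cancer cells. Lymph node B-like cells had 1.45 CPM and lymph node T-like cells 3.74 CPM.

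Gclm and Gclc, the subunits of glutamate-cysteine ligase, differed from each other in where they were found. Gclm reached 438 CPM [349, 543] in lymph node monocyte-like cells, 266 CPM [247, 286] in primary tumour macrophage-like cells and 168 CPM [155, 181] in lymph node endothelial-like cells. Gclc reached 322 CPM [246, 413] in lymph node monocyte-like cells and 161 CPM [141, 183] in lymph node dendritic-like cells, and was 26.9 CPM [21.9, 32.6] in lymph node endothelial-like cells. One dendritic-like cell held 35 of the 233 Gclc UMIs of its class, and the level without it was 138 CPM. In lymph node B-like cells Gclc was 68.5 CPM and Gclm 29.1 CPM, while in lymph node cancer cells Gclc was 18.7 CPM [16.9, 20.7] and Gclm 102 CPM [97.7, 107]. Of all kept Gclc UMIs in the lymph node, 29.9% lay in B-like and 30.9% in T-like cells, against 17.5% in cancer cells. Of the kept UMIs of all genes there, the B-like, T-like and cancer cells held 18.9%, 25.1% and 40.5%.

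Nqo1, the quinone reductase often used as a readout of NRF2, was low in these cells. Primary tumour cancer cells had 7.78 CPM [7.24, 8.36] from 759 UMIs, and lymph node cancer cells had 2.42 CPM [1.79, 3.19] from 50 UMIs. Its highest level with at least 10 UMIs was in lymph node endothelial-like cells, at 11.9 CPM [8.65, 15.9] from 45 UMIs, with no cell above 3. That interval overlapped that of primary tumour macrophage-like cells, at 9.41 CPM [6.15, 13.8]. The lymph node endothelial-like cells carried all 3 high endothelial markers (Glycam1, Chst4 and Fut7) at a summed 2912 CPM. The 52 endothelial-like cells of the primary tumour carried none of them and had 1 Nqo1 UMI, or 2.77 CPM [0.07, 15.4]. That interval overlapped the one of the lymph node endothelial-like cells, and the interval of their log2 ratio, [-0.45, 7.43], included 0.

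Within the myeloid cells of the primary tumour the genes did not move as a block. The macrophage-like cluster led by Lpl, Gpnmb and Mmp12 (243 cells) had 548 CPM of Gclm [507, 592], against 66.6 CPM [53.0, 82.7] in the macrophage-like cluster led by Ccl8, Mrc1 and C1q genes (308 cells). Slc7a11 differed between the same clusters, at 915 CPM [861, 972] and 110 CPM [92.0, 130]. Gclc was 184 CPM [160, 210] in the first and 57.7 CPM [45, 72.8] in the second, and Nqo1 had 24 UMIs (20.5 CPM) in the first and 2 UMIs (1.63 CPM) in the second. Hmox1 did not separate them, at 2008 CPM [1928, 2091] and 2028 CPM [1949, 2109]. A smaller macrophage-like cluster led by Mgl2 and Ccl17 (96 cells) had less Hmox1, at 392 CPM [330, 462], but 547 CPM of Slc7a11 [473, 628]. The monocyte-like cluster combined 1579 CPM of Hmox1 with 1492 CPM of Slc7a11, and its Gclm was 89.1 CPM [69.9, 112]. An unnamed cluster of 306 primary tumour cells led by Arg1, F13a1 and Ptgs2 had 1163 CPM of Hmox1 [1090, 1239] and 770 CPM of Slc7a11 [711, 833].

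**Figure D2:**
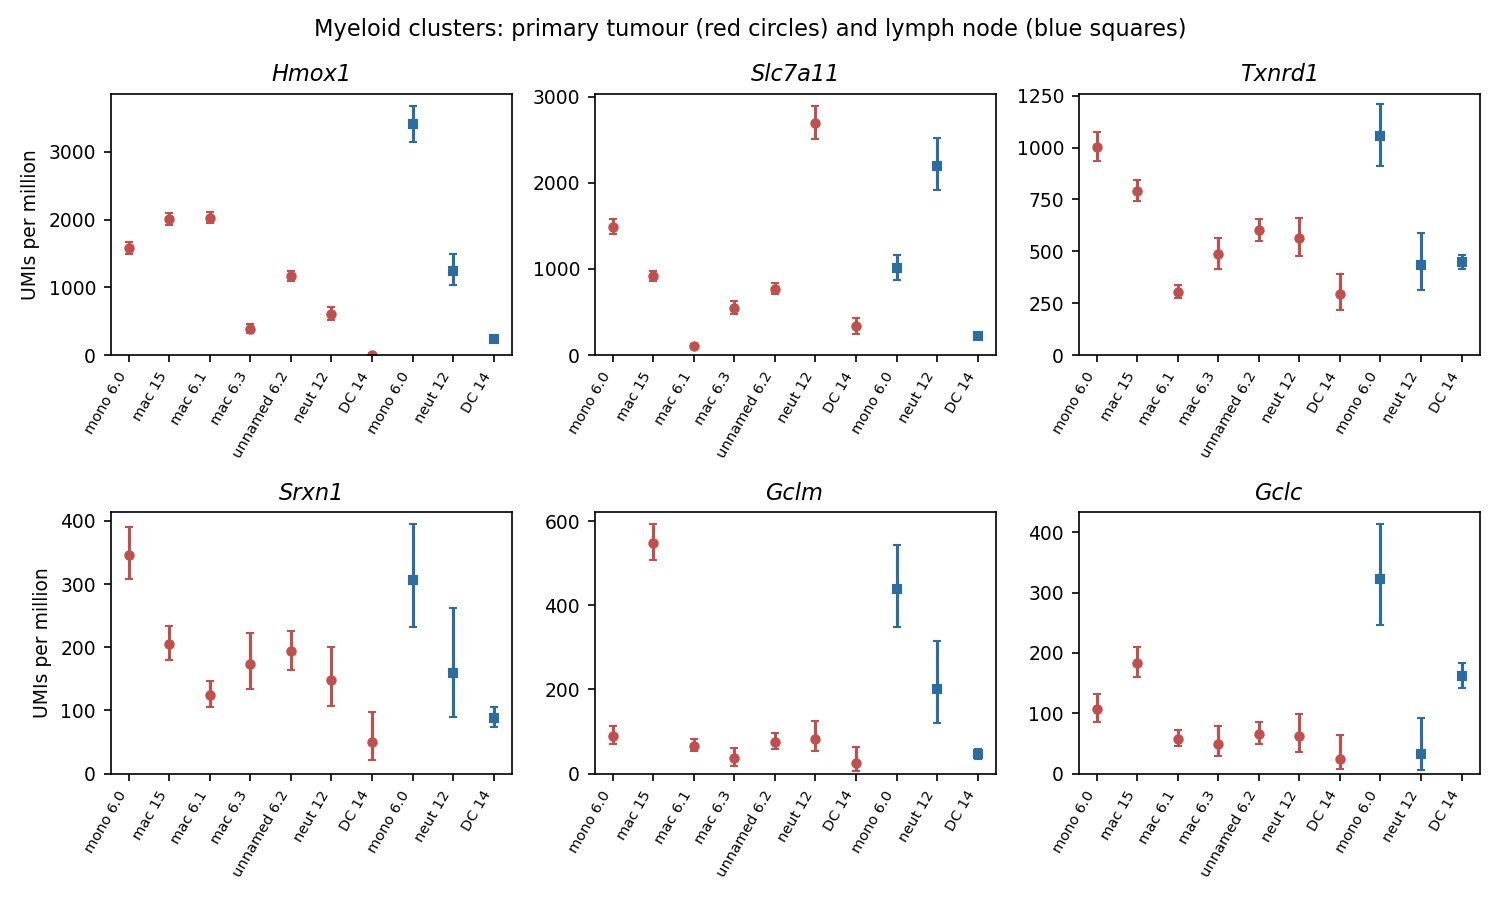
Level in CPM (vertical axes, starting at 0) of 6 of the genes in each myeloid cluster with at least 20 cells (mono, monocyte-like; mac, macrophage-like; neut, neutrophil-like; DC, dendritic-like), with exact 95% Poisson intervals as bars. In the primary tumour (red circles) Hmox1 is alike in clusters 15 and 6.1, whereas Slc7a11, Gclm and Gclc are higher in cluster 15, and the lymph node values are blue squares.

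The next comparison was between cancer cells of the lymph node (621 cells, 20698649 UMIs) and of the primary tumour (6154 cells, 97533601 UMIs). With no upper limit on detected genes, 1295 lymph node and 6847 primary tumour cells were classed as cancer cells. That limit thus left out a larger share of the lymph node cancer cells. The comparison and the groups of lymph node cancer cells below cover cells within the limit, unless stated otherwise. Of the 10 genes, 4 were at least 2-fold lower in the lymph node (Cyp1a1, Gpx2, Nqo1 and Gclc), 1 was at least 2-fold higher (Slc7a11), and 5 lay within 2-fold. Of the 10743 genes that reached 100 UMIs in the cancer cells of one tissue or the other, 9.35% were at least 2-fold lower and 4.51% at least 2-fold higher. The members' contrast was known when they were chosen, so these counts are set beside the background without a reading. The median log2 ratio of the 10 genes was -0.62, and that of all genes counted was -0.19.

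Cyp1a1 had the lowest log2 ratio of the 10, -3.31 [-3.58, -3.06], 9.91-fold lower in the lymph node, and lay at percentile 0.605 of all genes. The clusters that gave most of the primary tumour Cyp1a1 held 0 and 8 lymph node cells, as described below. Gpx2 had a log2 ratio of -2.15 [-2.36, -1.96], which is 4.45-fold lower, and Nqo1 one of -1.67 [-2.13, -1.27]. The log2 ratio of Gclc was -1.16 [-1.32, -1.01], and it came within 2-fold, at -0.97, when ratios were centred on the median of all genes and, at -0.95, when single-cell CPM were averaged. Slc7a11 had a log2 ratio of 1.58 [1.39, 1.77], 2.99-fold higher in the lymph node, at percentile 98.3. Hmox1 was higher by less than 2-fold, with 0.80 [0.72, 0.89], and its value was 0.29 when cells above 6000 detected genes were kept. A single lymph node cancer cell held 151 of the 1469 Hmox1 UMIs, and the level of 71.0 CPM was 63.8 CPM without it.

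The remaining genes differed less. Srxn1 had a log2 ratio of -0.69 [-0.82, -0.56] and Gsto1 one of -0.55 [-0.58, -0.51]. Gclm and Txnrd1 were nearest to 0, at -0.11 [-0.18, -0.04] and -0.13 [-0.18, -0.08], and both changed sign under centring, to 0.08 and 0.06. Thus mRNA of the cystine transporter subunit (Slc7a11) was counted higher and that of the catalytic subunit (Gclc) lower over all lymph node cancer cells. The modifier subunit (Gclm) was near the median of all genes. The direction of Gclc did not hold in every group of these cells, as given below, and cystine import was not measured.

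The lymph node cancer cells were themselves not uniform. One cluster, led by Krt33b, Tff2 and Xlr3b, held 516 of them and 1 primary tumour cell, and the other 105 lay in clusters shared with the primary tumour. Against all primary tumour cancer cells, the 516 cells had log2 ratios of -4.31 for Cyp1a1 [-4.73, -3.94], -3.27 for Gpx2 [-3.60, -2.98] and -1.70 for Gclc [-1.90, -1.52]. The 105 cells had 0.31 for Gpx2 [0.03, 0.55], 0.69 for Gclc [0.44, 0.92] and -0.93 for Cyp1a1 [-1.31, -0.60]. They made up 16.9% of the lymph node cancer cells and 10.7% of their UMIs, but 59.0% of the Gpx2, 55.6% of the Cyp1a1, 39.7% of the Slc7a11 and 38.8% of the Gclc UMIs. Slc7a11 was higher than in the primary tumour in both, with log2 ratios of 1.02 [0.79, 1.23] in the 516 cells and 3.47 [3.20, 3.72] in the 105 cells. Hmox1 was 57.3 CPM in the 516 cells and 184 CPM in the 105 cells. Over the 105 cells the median log2 ratio of the 10 genes was 0.18, with 1 gene at least 2-fold lower (Nqo1) and 2 at least 2-fold higher (Hmox1 and Slc7a11), against a median of -0.67 with 4 lower and 1 higher over the 516 cells. None of the 105 cells carried a barcode shared between the libraries. Haemoglobin and other erythroid markers summed to 11585 UMIs (559.7 CPM) over all lymph node cancer cells. Of these, 1686 UMIs (91.3 CPM) lay in the 516 cells. Only 4 UMIs (3.60 CPM) lay in the 51 cells that fell in the cluster led by Tff1, Alb and Cldn4. The rest thus lay in the remaining cells of the 105, and the part of erythroid RNA in their levels was not tested.

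**Figure D3:**
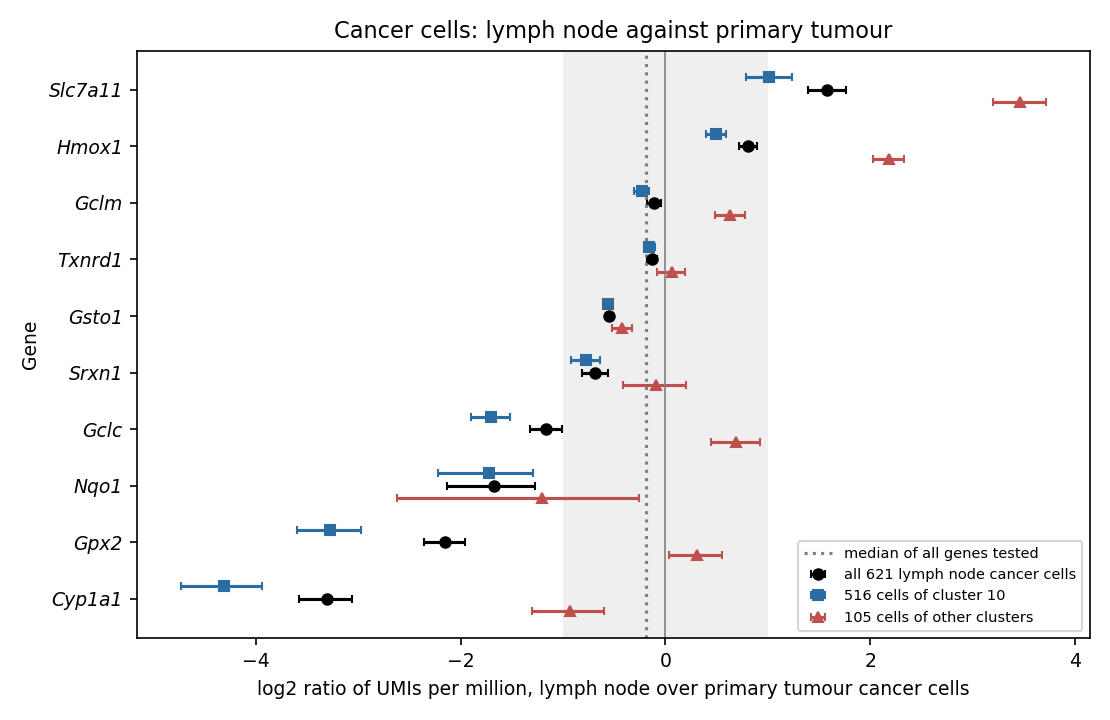
Log2 ratio of CPM in lymph node over primary tumour cancer cells (horizontal axis) for each gene, with exact 95% intervals for counting error, over all 621 lymph node cancer cells (black circles), the 516 of cluster 10 (blue squares) and the other 105 (red triangles). The grey band marks ratios within 2-fold and the dotted line the median of all genes tested, and Cyp1a1, Gpx2 and Gclc lie further left in cluster 10 than in the other 105 cells.

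A single cancer cluster, led by Tff1, Alb and Cldn4, held at least 20 cells of both libraries (51 lymph node and 1026 primary tumour cells), and there the direction was different for several genes. Cyp1a1 was 43.2 CPM in its lymph node cells and 3.70 CPM in its primary tumour cells, a log2 ratio of 3.55 [2.96, 4.13]. Slc7a11 and Hmox1 kept the direction seen over all cancer cells. Slc7a11 was 93.7 and 14.7 CPM, a log2 ratio of 2.68 [2.33, 3.02], and Hmox1 214 and 57.0 CPM, one of 1.91 [1.69, 2.12]. Gclm and Gclc had log2 ratios of 1.43 [1.23, 1.63] and 1.05 [0.73, 1.34]. Txnrd1 and Gsto1 had 0.74 [0.56, 0.91] and 0.15 [0.02, 0.28]. Over all cancer cells each of Gclm, Gclc, Txnrd1 and Gsto1 had a negative log2 ratio. The Gpx2 ratio of -0.33 had an interval that included 0 [-0.75, 0.04]. In these 51 cells the 7 macrophage markers summed to 6.31 CPM, below the 17.8 CPM of all lymph node cancer cells, and 3 of the 7 had a UMI. The 5 monocyte markers summed to 115 CPM in these 51 cells, with 2 of the 5 present, and to 108 CPM in the primary tumour cells of the cluster. T, B and dendritic markers summed to 64.9, 24.3 and 16.2 CPM in these 51 cells. In the primary tumour cells of the cluster they summed to 31.7, 7.60 and 6.59 CPM. Plasma markers went the other way, at 46.9 and 100.5 CPM. The part of RNA of other cells in the levels of the 51 cells was not tested.

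Among primary tumour cancer cells, Cyp1a1 varied most from cluster to cluster. The cluster led by Cyp1a1, Serpinb9b and Cryab (300 cells) had 221 CPM [210, 232], and the cluster led by Cyp1a1, Wnt6 and Adh7, whose leading genes include the mitotic genes Cenpf and Anln (1506 cells), had 118 CPM [115, 122]. Together these clusters gave 27.1% and 68.9% of the Cyp1a1 UMIs of primary tumour cancer cells, from 7.32% and 34.7% of all their UMIs. The other clusters had between 2.14 and 8.42 CPM, the lowest being the level of 1 UMI. In the 300-cell and 1506-cell clusters 38.0% and 38.5% of cells had a Cyp1a1 UMI. Their median depths, 23022 and 22601 UMIs, were above those of the other clusters (1533 to 17785), and the part of depth in these levels was not tested. Nqo1 was higher in the same clusters, at 11.1 CPM [8.76, 13.8] and 13.6 CPM [12.4, 14.9], against 3.03 to 4.38 CPM in the 3 other clusters of over 500 cells.

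The glutathione and thioredoxin genes divided in another way. Gsto1 was 1131 CPM [1106, 1156] in the 300-cell cluster and 337 to 500.0 CPM in the 4 clusters of over 500 cells. Gclm was 162 CPM [157, 166] and Txnrd1 250.2 CPM [245, 256] in the 1506-cell cluster, against 72.0 and 147 CPM in the largest cluster, led by Mt4 and Slurp1 (2566 cells). Gpx2 went the other way, with 24.0 CPM [22.4, 25.7] in the 1506-cell cluster and 62.2 CPM [59.5, 65.0] in the largest one. Slc7a11 was 14.7 and 13.3 CPM in the 2 clusters led by Tff1 and 3.19 to 4.48 CPM in the other clusters of at least 300 cells. Srxn1 varied least, between 34.2 and 50.8 CPM. A cluster of 218 cells with a median of 1533 UMIs had the lowest level of every gene except Nqo1 and Gpx2 among primary tumour cancer clusters. Its levels rest on few UMIs, and those of Cyp1a1 and Slc7a11, 2.14 CPM each, are the level of 1 UMI. Haemoglobin and other erythroid markers summed to 5989 CPM there, against 30.4 to 345 CPM in the other primary tumour cancer clusters.

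**Figure D4:**
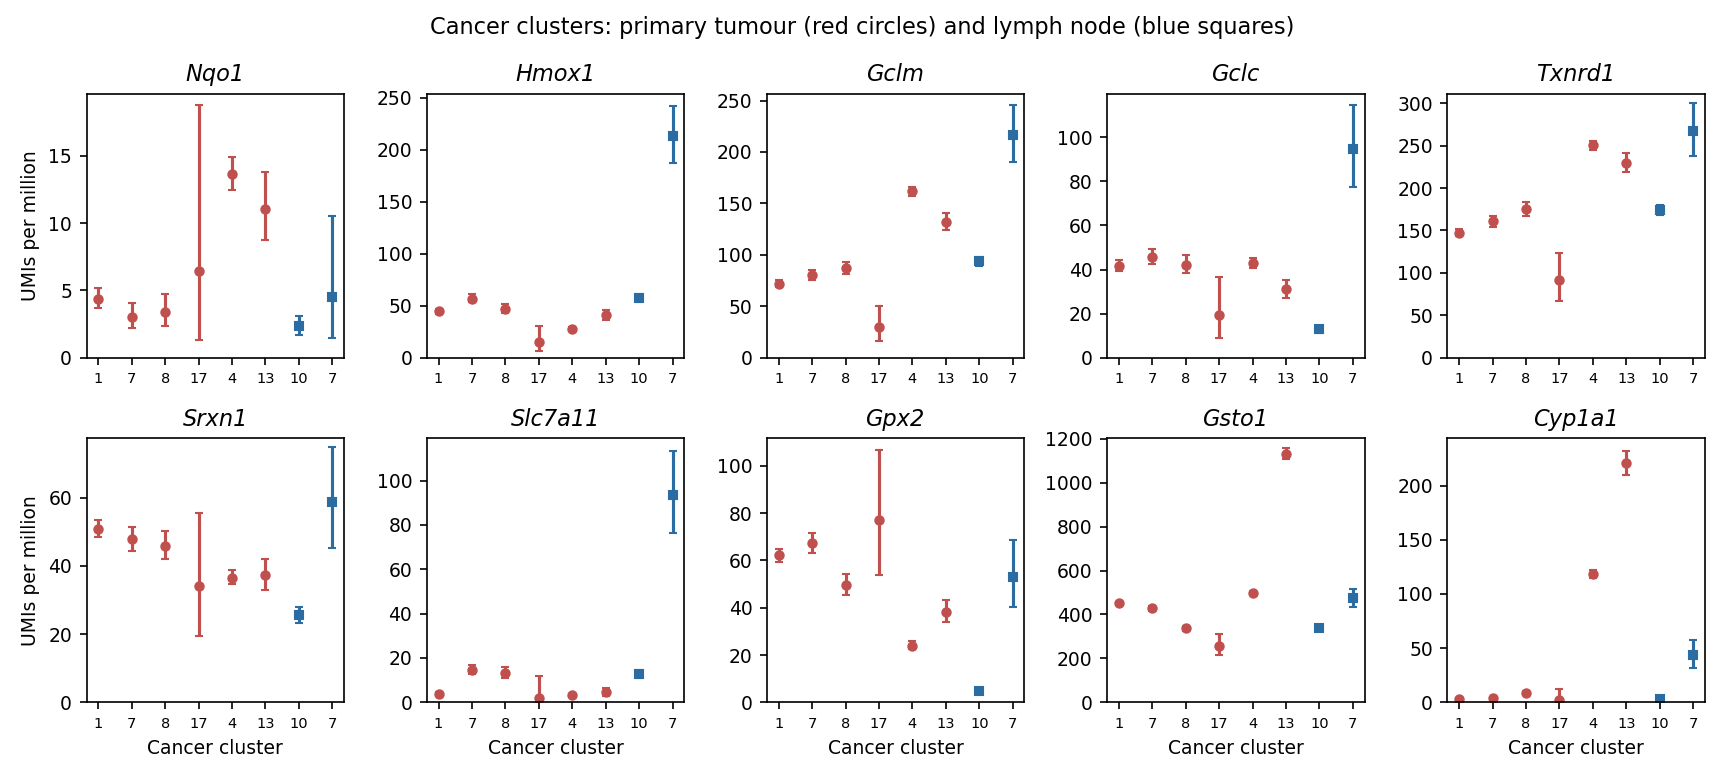
Level in CPM (vertical axes, starting at 0) in each cancer cluster with at least 20 cells of a library, with exact 95% Poisson intervals. Cyp1a1 and Nqo1 are high in primary tumour clusters 4 and 13 (red circles), Gsto1 in cluster 13, and Cyp1a1, Gpx2 and Gclc are low in lymph node cluster 10 but not in the lymph node cells of cluster 7 (blue squares).

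From cell to cell, Cyp1a1 was the most unevenly spread of the 10 genes in primary tumour cancer cells. Its 5813 UMIs lay in 827 cells, whereas 3375 cells would carry one if UMIs followed depth alone. The highest cell held 74, and 234 cells held 10 or more. Gpx2 had 4562 UMIs in 1468 cells, against 2929 by depth alone, and Hmox1 3963 UMIs in 1883 cells, against 2677. Gsto1 and Txnrd1 came closest to the number by depth, with UMIs in 5613 cells against 5901 and in 4796 cells against 5242. The 10% of cells with most UMIs of the gene held 96.4% of the Cyp1a1, 76.6% of the Gpx2 and 36.7% of the Gsto1 UMIs, while the deepest 10% of cells held 22.4% of all UMIs. In the lymph node, Gpx2 was the most uneven, with 217 UMIs in 51 cells against 180.1 by depth alone.

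**Figure D5:**
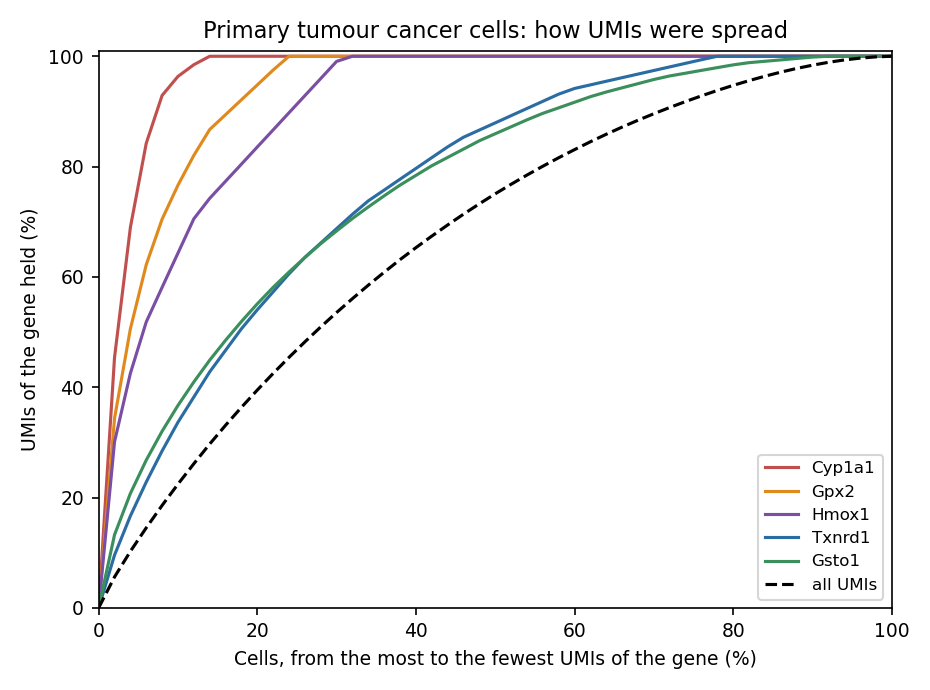
Share of a gene's UMIs (vertical axis, %) held by the cells with most of them (horizontal axis, % of the 6154 primary tumour cancer cells), with all UMIs ordered by depth as the dashed line. Cyp1a1 reaches 96.4% at 10% of cells, and Gsto1 and Txnrd1 run closest to the dashed line.

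Pairs of the 10 genes were weakly related over single primary tumour cancer cells. Over 6154 cells of 1 library, whose sparse counts and depth all pairs share, the highest Pearson correlations of log-scaled counts were 0.29 for Gclm with Txnrd1 and 0.26 for Nqo1 with Cyp1a1. The median over the 45 pairs was 0.07, as a description. In the 621 lymph node cancer cells the median was 0.21, and the highest were 0.48 for Hmox1 with Gclm and 0.46 for Gclc with Slc7a11. These cells pool the 516 and the 105 cells described above, and Hmox1, Gclm, Gclc and Slc7a11 were all higher in the 105. The part of that difference in these correlations was not tested.

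Genes with the most similar pattern were listed for each member, 3 per measure. Over the 20 groups of class and library, which share 2 libraries, the gene closest to Txnrd1 was Srxn1 (Pearson r = 0.91), and Srxn1 had Txnrd1 as its closest. Slc7a11 was closest to Il1b (0.96), Nlrp3 (0.95) and Adam8 (0.94), Hmox1 to Cd300c2 (0.89), Lyz2 (0.88) and Tgfbi (0.87), and Gpx2 to Serpinb11 (0.93), Zbtb7c (0.92) and Cldn4 (0.90). Over primary tumour cancer cells, Cyp1a1 was closest to Adh7 (0.44), Slpi (0.40) and Gsta4 (0.40), and Nqo1 to Cyp1a1 (0.26), Adh7 (0.19) and Slpi (0.19). Gsto1 was closest to Serpinb9b (0.35), Gpx2 to Khdc1a (0.36) and Gclm to Gng12 (0.35). For Gclc the closest genes over cells were 3 other members, Srxn1 (0.18), Txnrd1 (0.17) and Gclm (0.16).

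The gene of NRF2 itself was nearly level between cancer cells of the tissues, and 1 of the genes grouped as its regulators passed 2-fold. Nfe2l2 was 171 CPM in the lymph node and 175 CPM in the primary tumour, a log2 ratio of -0.03 [-0.08, 0.02], and Keap1 48.6 and 60.1 CPM, one of -0.30 [-0.40, -0.21]. Of the 9 NRF2 regulators counted, 1 was at least 2-fold lower in the lymph node, the small MAF gene Mafk with 15.8 against 56.0 CPM, and none was at least 2-fold higher, beside 9.35% and 4.51% of all genes. Cul3 had a log2 ratio of -0.28, Bach1 one of -0.97, and Sqstm1, whose product sequesters KEAP1, one of -0.72. Rbx1, Mafg and Maff had -0.05, -0.52 and -0.50, and the median of the 9 was -0.50, beside -0.19 over all genes. These values also differed within the lymph node cancer cells. Mafk was 8.34 CPM [7.07, 9.76] in the cluster of 516 cells. In the cluster led by Tff1, Alb and Cldn4, with 51 lymph node and 1026 primary tumour cells, its level was 104.5 CPM [86.4, 125.4] for the lymph node and 86.5 CPM [81.8, 91.4] for the primary tumour. In that shared cluster Maff was 115 and 106 CPM and Nfe2l2 206 and 128 CPM, so none of the 3 was lower in its lymph node cells.

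For the AHR pathway, Ahr itself was 51.4 and 53.5 CPM, a log2 ratio of -0.06 [-0.15, 0.04], while its partner Arnt had -0.95. Among AHR-linked genes with enough UMIs, Tiparp had a log2 ratio of -0.99, Cyp1b1 one of -1.15 from 11 and 120 UMIs, and Aldh3a1 went the other way with 0.77. Tiparp was 35.6 CPM [32.9, 38.4] in the cluster of 516 lymph node cells. In the shared cluster led by Tff1, Alb and Cldn4 it was 156 CPM [134, 181] for the lymph node and 155 CPM [149, 161] for the primary tumour. Arnt was 20.7 CPM [13.1, 31.1] and 32.0 CPM [29.2, 35.0] there. Of the 6 genes of the AHR list tested, out of 10 listed, Cyp1b1 was at least 2-fold lower and none was at least 2-fold higher, beside the same 9.35% and 4.51% of all genes. Across primary tumour cancer clusters Cyp1b1 was raised where Cyp1a1 was, and Tiparp was not. Cyp1b1 was 2.24 and 2.13 CPM in the 300-cell and 1506-cell clusters with most Cyp1a1, against 0.297 to 0.676 CPM in the other clusters of over 500 cells. Tiparp was lower in those clusters, at 59.8 and 38.1 CPM, against 96.8 to 155 CPM. Ahr ranged from 48.1 to 64.7 CPM over the clusters of at least 300 cells, and Nfe2l2 was 361 CPM in the 300-cell cluster, 204 CPM in the 1506-cell cluster and 128 to 139 CPM in the other clusters of over 500 cells.

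Other genes linked to NRF2 mostly stayed within 2-fold, as did most of all genes tested (9.35% at least 2-fold lower and 4.51% at least 2-fold higher, which stand beside each list that follows). Of 19 counted, 1 was at least 2-fold higher in the lymph node, the biliverdin reductase Blvrb (log2 ratio 1.15), and none was lower, with a median of 0.18. The carbonyl reductase Cbr1 had 0.99 and the malic enzyme Me1 0.77. Among 13 glutathione enzymes, Chac1, which degrades glutathione, and the microsomal transferase Mgst1 were at least 2-fold lower (-2.50 and -2.48), and Gstp1 was at least 2-fold higher (1.34), with a median of 0.20. Among 10 superoxide and peroxide enzymes, Sod1 was lower (-1.04) and Prdx4 higher (1.12), with a median of 0.17. Among 7 haem and iron genes, Hmox2 was higher (1.06) and Hpx lower (-1.22, from 11 and 126 UMIs), with a median of 0.50.

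The ATF4 linked list, which holds genes of the amino acid and stress response that also controls Slc7a11, went both ways. Of 8 counted, 4 were at least 2-fold lower in lymph node cancer cells, namely Atf3 (-1.93), Atf4 (-1.41), Trib3 (-1.34) and Sesn2 (-1.19), and 1 was at least 2-fold higher, the serine synthesis enzyme Phgdh (1.30), beside 9.35% and 4.51% of all genes. The asparagine synthetase gene Asns had 0.87, with 163 CPM in the lymph node and 89.1 CPM in the primary tumour. The median was -0.90, beside a median of -0.19 over all genes. The metallothionein gene Mt2 was lower (-1.63) and Mt1 was within 2-fold (-0.46). Ddit3, also on the ATF4 list, was not analysed here.

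Outside cancer cells, the lymph node and primary tumour levels could be set side by side in 7 classes with at least 20 cells of each library. In monocyte-like cells (41 and 396 cells) Gclm was higher in the lymph node by a log2 ratio of 2.29 [1.82, 2.77], Gclc by 1.59 [1.09, 2.07] and Hmox1 by 1.11 [0.97, 1.25], while the interval of Txnrd1, 0.07 [-0.16, 0.30], included 0. Leaving out the 5 lymph node monocyte-like cells with most UMIs of each gene lowered these levels, to 254 CPM for Gclm and 177 CPM for Gclc. Endothelial-like cells had more Gsto1 in the lymph node, 362 against 155 CPM (1.21 [0.84, 1.64]), and less Gclc, 26.9 against 66.5 CPM (-1.33 [-1.96, -0.60]). The study methods also name endothelial cells sorted from lymph nodes in parallel, and the labels do not say whether any entered this library. The endothelial-like groups differ in kind, since the high endothelial markers were absent from the tumour group, so vessel type and tissue cannot be told apart. In dendritic-like cells, Gclc was 161 CPM in the lymph node and 24.7 CPM from 4 UMIs in the primary tumour, and Hmox1 was 230 CPM against 1 UMI. In T-like cells every gene whose interval excluded 0 was lower in the lymph node, and their summed cancer markers were lower there too, 72.5 against 647.5 CPM, so the part of cancer cell RNA in that contrast was not tested.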

How the data were processed

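Single cells of pooled primary tumours and of pooled paired lymph nodes were profiled with droplet-based 3′ libraries, 1 per tissue. Each deposited matrix gives unnormalised UMI counts for every gene in every cell. Cell Ranger appears as 5.0.0 in the header of the counts and as 2.1.1 in the submitters' processing notes, with GRCm38 as the build. The files still held cells beyond the limits that the study methods give, and those limits were set here, keeping cells with more than 200 genes, no more than 6000 genes and a mitochondrial share of 5% or less. This left 9147 and 10305 cells. Doublets were called in each library from simulated pairs at an expected rate of 6%, and 360 primary tumour cells (3.94%) and 490 lymph node cells (4.75%) were removed.

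For clustering, each cell was brought to a total of 10000 and logged. The 2000 variable genes of a library excluded the 10 genes and all lists. The effect of cell cycle scores, from lists in Seurat 5.3.0, was removed, and cells of both libraries were clustered on 30 components with 15 neighbours (Leiden, resolution 1.0, igraph 0.11.9, python 3.11.15, numpy 2.4.6, scipy 1.17.1), with no integration. Of 32 clusters, 30 were named from markers, and 2 (306 primary tumour and 126 lymph node cells) stayed unnamed. A name needed at least 3 raised markers. Levels were given for classes of at least 20 cells, and the highest class of a gene needed at least 10 UMIs. For log2 ratios 0.5 was added to both sums, and their intervals are exact. Where no UMI was seen, 3 UMIs served as the upper limit. Thinned shares are those expected at 1000 UMIs per cell. Ratio and thinning code was tested on simulated data.

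The members and lists were chosen with earlier results of these data known, and the rule for naming clusters was settled with the data in view. All 10 members were named, with all regulators of the NRF2 list and up to 6 genes of each other list, in order of the size of the log2 ratio in cancer cells among genes with at least 100 UMIs. One gene of the AHR list is not reported here. Alternatives covered doublets, cell limits, resolution, separate clustering, depth, scaling, single cells, a marker rule without clusters and the added count.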

Additional observations from a re-analysis of the deposited data

Results flagged for a closer look

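Some results went opposite ways in cancer cells and in another class, with log2 ratios of at least 0.5 in size, intervals that excluded 0 and at least 10 UMIs in each tissue. The difference between the classes was not tested. Slc7a11 was higher in lymph node than in primary tumour cancer cells (log2 ratio 1.58), but lower in T-like (-3.21), endothelial-like (-1.38), dendritic-like (-0.63) and monocyte-like cells (-0.56). A smaller opposite value, -0.29 in neutrophil-like cells, lay below that size. The T-like ratio of Slc7a11 rests on 16 lymph node and 18 primary tumour UMIs, 9 of the latter in 1 cell. Its endothelial-like ratio rests on 54 and 13 UMIs, with 18 and 6 of them in single cells. The limits given above for T-like and endothelial-like contrasts apply here too. Hmox1 was higher in cancer cells (0.80) and lower in T-like cells (-1.11). Gclc was lower in cancer cells (-1.16) and higher in monocyte-like cells (1.59). Gsto1 was lower in cancer cells (-0.55) and higher in endothelial-like cells (1.21).

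Cells left out by the limits also carried the 10 genes. The genes together had 1217 CPM in 874 primary tumour cells and 870.8 CPM in 971 lymph node cells over 6000 detected genes, against 1156 and 585 CPM in the kept cells. In cells over 5% mitochondrial UMIs they had 1283 CPM in the primary tumour (2312 cells) and 660.7 CPM in the lymph node. Cyp1a1 was 100.2 CPM in the primary tumour cells over 6000 genes and 3.61 CPM in the lymph node ones.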

How the results depend on the processing

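With 1 library per tissue there was no replicate to leave out. No paired analysis was possible because each tissue has a single library and no test was run. The median log2 ratio of the 10 genes in cancer cells, -0.62, was -0.43 when centred on the median of all genes and turned to 0.18 over the 105 lymph node cancer cells outside the cluster of 516, where Gpx2 (0.31) and Gclc (0.69), both at least 2-fold lower over all 621 cells, changed sign, as did Gclm (0.64) and Txnrd1 (0.06), 1 gene was at least 2-fold lower and 2 were at least 2-fold higher. Under all other alternatives run 1 gene was at least 2-fold higher, and 4 were at least 2-fold lower except under centring and under the mean of single-cell CPM, which gave 3, with Gclc within 2-fold. Ratios ranged from -4.31 to -0.93 for Cyp1a1, from -3.27 to 0.31 for Gpx2, from -2.21 to -1.21 for Nqo1, from 1.02 to 3.47 for Slc7a11 and from 0.29 to 2.18 for Hmox1. The lowest values of Cyp1a1, Gpx2 and Slc7a11 came from the 516 cells alone, and both sets of lymph node cancer cells were added as alternatives after seeing the data. Of the single ratios under alternatives, those of Gpx2 and Gclc changed sign over the 105 cells. Those of Gclm and Txnrd1, the smallest in size in the main setting, changed sign there and under centring. Besides the ratios of Gpx2 and Gclc over the 105 cells, 50 moved beyond the main counting interval, and of 66 levels 21 did. The Slc7a11 level in primary tumour neutrophil-like cells ranged from 1459 to 3169 CPM. Depth limits Nqo1 most, with 50 UMIs in lymph node cancer cells. The cause of these shifts was not tested.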
